A study of Mus musculus with 3 samples.

Results

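Heart-type muscle and cardiac stress genes are followed here in mouse muscle across swimming and Chlorella intake. The set holds 8 genes, Nppa, Nppb, Mybpc3, Actc1, Ankrd1, Csrp3, Gata4 and Nkx2-5, taken as every non-control probe that the scanner files name by one of these symbols. They have 11 probes of 41169 on the array, and 27665 genes in all were represented. The mice were male and 6 weeks old, and RNA of muscle was taken after 14 days. The nonswimming group had normal food and no swimming. The swimming group had normal food and swam. The Chlorella group swam as well and ate food with 0.5% powder of Chlorella, a unicellular green alga. RNA of 10 mice was pooled per group and hybridised to 1 single-colour Agilent array, so no spread between mice was measured and no test between groups was possible. The sampled muscle and the mouse strain are not stated in the labels.

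In heart muscle these genes cover several layers of one programme. Gata4 and Nkx2-5 are transcription factors that turn on cardiac genes during development, Actc1 and Mybpc3 encode parts of the contractile filaments, and Ankrd1 and Csrp3 encode proteins of the Z-disc and the titin region that also act in the nucleus and respond to load. Nppa and Nppb encode the hormones ANP and BNP, which stretched cardiac muscle releases and which lower blood volume and pressure. Skeletal muscle shares a part of this programme: Actc1 is the main actin of fetal muscle, Csrp3 is typical of slow fibres, and Ankrd1 is induced by stretch and injury.

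The 8 genes separated by brightness. Actc1, Csrp3, Ankrd1 and Mybpc3 were well above background on all 3 arrays, a flag that the scanner software sets for each spot against the background it estimates. Nppa, Gata4 and Nkx2-5 were not well above background on any array, and Nppb was so on the Chlorella array alone. Signals are given as processed intensity, and a level compared between arrays is log2 of that signal minus the array's 75th percentile, which was 285.9 on the nonswimming, 295 on the swimming and 237.8 on the Chlorella array. A difference was counted where it reached 2-fold, a log2 ratio of 1, and the probe was well above background on both arrays. Each ratio carries an error combined from what the scanner software gives for its spots, which holds no difference between mice. Over all genes measured on both arrays, the shares at least 2-fold higher and lower were 5.14% and 1.07% in swimming against nonswimming, 1.37% and 4.86% in Chlorella against normal food in swimming mice, and 2.07% and 1.49% in Chlorella swimming against nonswimming, with medians of -0.04, 0.08 and 0.04. No probe was saturated, and between 23448 and 24857 probes per array were well above background.

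**Figure D1:**
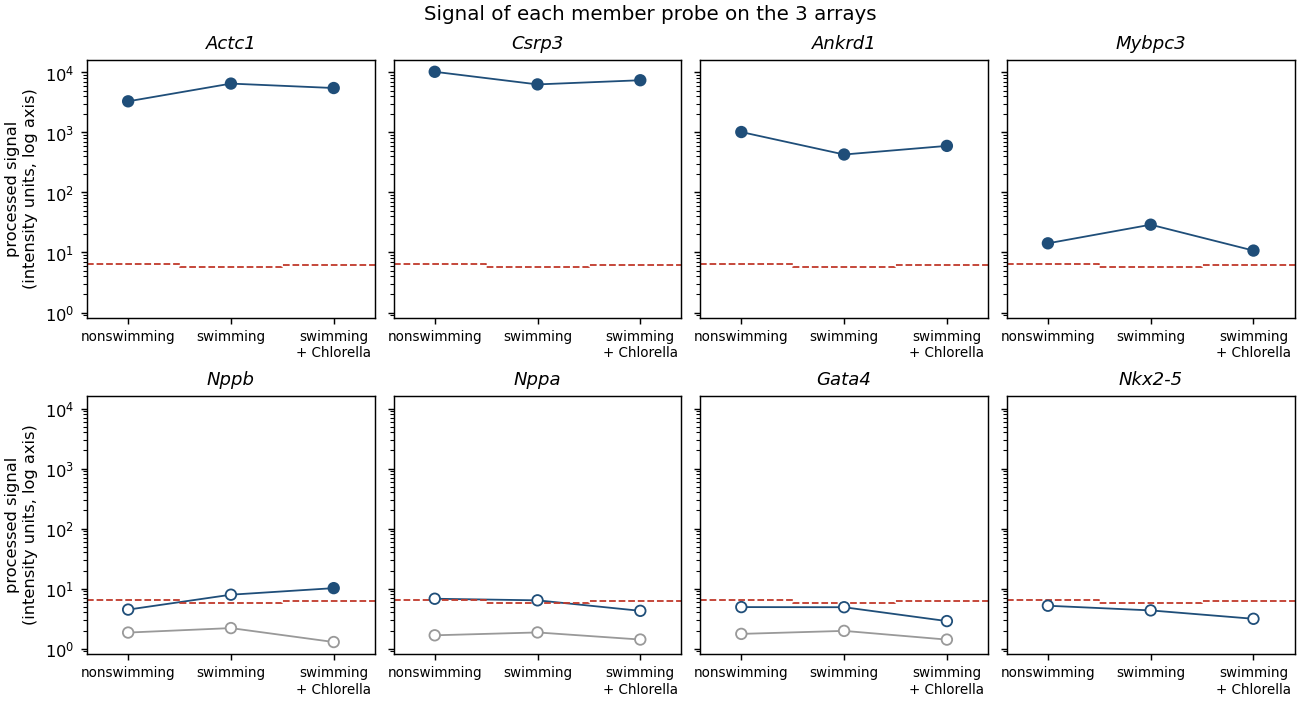
Processed signal (intensity units, log axis) of every probe of the 8 genes on the 3 arrays. Filled points are well above background and open points are not, blue marks the brighter probe of a gene and grey the other one, lines join a probe's values and the dashed red line is the lowest signal well above background on each array (6.45, 5.78 and 6.26). Actc1, Csrp3, Ankrd1 and Mybpc3 are filled throughout, and of the other 4 genes only Nppb has a filled point, at 10.2 on the Chlorella array.

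The upstream sequences of the 4 measured genes are shown because their levels differed between arrays by at least 2-fold in some comparison or, for Csrp3, in the same directions as Ankrd1. They are from RefSeq on build GRCm38.p6, 5′ to 3′ on the gene's own strand, and stop before the first base of the gene: chr19:36119845-36120094 (minus strand) for Ankrd1, chr7:48848052-48848301 (minus) for Csrp3, chr2:114052876-114053125 (minus) for Actc1 and chr2:91117894-91118113 (plus) for Mybpc3. Capitals mark matches, on either strand, to AGATAA (bound by GATA factors such as Gata4), GGAATG (bound by TEAD factors), AAGTG (bound by Nkx2-5), and the CArG box and MEF2 motifs, which are given by name.
Ankrd1: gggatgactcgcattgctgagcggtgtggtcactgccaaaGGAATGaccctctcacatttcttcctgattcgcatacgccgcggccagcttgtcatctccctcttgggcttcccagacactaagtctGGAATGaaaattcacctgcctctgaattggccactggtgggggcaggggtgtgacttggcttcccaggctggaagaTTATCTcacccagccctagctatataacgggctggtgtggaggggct
Csrp3: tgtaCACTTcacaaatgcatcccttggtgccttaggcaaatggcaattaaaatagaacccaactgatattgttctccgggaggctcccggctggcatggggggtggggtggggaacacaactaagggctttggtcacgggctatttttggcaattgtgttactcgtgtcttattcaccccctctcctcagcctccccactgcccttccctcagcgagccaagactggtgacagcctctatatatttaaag
Actc1: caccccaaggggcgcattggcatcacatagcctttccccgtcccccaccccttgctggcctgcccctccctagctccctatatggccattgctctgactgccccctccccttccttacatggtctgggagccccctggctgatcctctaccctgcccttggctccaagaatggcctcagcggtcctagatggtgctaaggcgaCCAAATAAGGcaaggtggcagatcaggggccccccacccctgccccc
Mybpc3: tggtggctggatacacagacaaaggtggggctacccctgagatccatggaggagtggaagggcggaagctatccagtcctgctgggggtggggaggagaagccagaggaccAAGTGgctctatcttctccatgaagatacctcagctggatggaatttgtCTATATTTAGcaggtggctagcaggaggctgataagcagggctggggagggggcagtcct

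Ankrd1 held 2 GGAATG matches, starting 210 and 123 bases before its start, and 1 AGATAA match on the other strand. Actc1 held 1 CArG box, 47 bases before its start. Mybpc3 held 1 MEF2 match and 1 AAGTG match, and Csrp3 held 1 AAGTG match on the other strand. No printed matches overlapped. Of 32851 windows of 250 bases before a start in the same RefSeq table, 12.6% held GGAATG, 10.0% AGATAA, 40.7% AAGTG, 1.5% a CArG box and 2.9% a MEF2 motif. The Mybpc3 stretch is 220 bases, since the gene's outermost start lies inside its window. A match is a run of letters, and binding was not measured. RefSeq windows were found for 7 of the 8 genes, all but Gata4.

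Ankrd1, the cardiac ankyrin repeat protein, was the member farthest below the nonswimming array. The files place its probe on chromosome 19, bases 35813004 to 35813063, in a build that they do not name. The signal was 1017 on the nonswimming, 429.2 on the swimming and 597.7 on the Chlorella array. The nonswimming array was thus the highest, the swimming array the lowest and the Chlorella array between them. The log2 ratio of swimming against nonswimming was -1.29 ± 0.20, a 2.45-fold lower level, and 0.5% of 15661 genes measured on both arrays had a lower ratio. Chlorella against normal food in swimming mice gave 0.79 ± 0.20 (1.73-fold higher), and Chlorella swimming against nonswimming gave -0.50 ± 0.20, both under 2-fold. The first and the second ratio share the swimming array, so a low value on that array alone moves both, in opposite directions. All 3 intervals of 95% from the scanner error left out 0, at -1.69 to -0.89, 0.39 to 1.19 and -0.90 to -0.10.

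Csrp3, the muscle LIM protein, had the same order of arrays with smaller differences. Its signal was 10257 on the nonswimming, 6321 on the swimming and 7418 on the Chlorella array. Swimming against nonswimming had a log2 ratio of -0.74 ± 0.20 (1.67-fold lower), and 2.3% of genes had a lower ratio. Chlorella against normal food in swimming mice had 0.54 ± 0.20 (1.46-fold higher). The Chlorella and nonswimming arrays did not differ beyond the scanner error, with a ratio of -0.20 ± 0.20 and a 95% interval of -0.60 to 0.20. No ratio of Csrp3 reached 2-fold. The files place its probe on chromosome 7 over 45051358 to 45053272.

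The relatives of Ankrd1 and Csrp3, named here for their family, did not reach 2-fold in any comparison. Ankrd2 and Ankrd23, the other muscle ankyrin repeat proteins that bind titin, had -0.62 and -0.47 in swimming against nonswimming and 0.42 and 0.22 in Chlorella against normal food. Csrp1, a LIM protein of smooth muscle, had -0.44 and 0.28, while Csrp2 had 0.09 and -0.41. Chlorella swimming against nonswimming gave -0.20 for Ankrd2, -0.25 for Ankrd23, -0.16 for Csrp1 and -0.32 for Csrp2. These genes belong to a list of 25 ankyrin, LIM, Z-disc and titin partners, all measured, of which none was at least 2-fold higher and 1 was lower in swimming against nonswimming, with a median of -0.20 against -0.04 over all genes. The gene below the threshold was Actn2, alpha-actinin of the Z-disc (-1.09 ± 0.20). By the brightest probe, none of the 25 reached 2-fold in Chlorella against normal food, and the median was 0.31 against 0.08 over all genes. Lists of 12 fast skeletal muscle and 9 smooth muscle and pericyte markers each had a median of 0.32 there. Ttn, titin, had 0.86 in that comparison, with 9 probes from 0.49 to 1.28. In Chlorella swimming against nonswimming the one past 2-fold was Ttn at 1.06 ± 0.20, and its 9 probes ranged from 0.39 to 1.52 there.

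Actc1, cardiac alpha-actin, was higher on both swimming arrays than on the nonswimming one. Its signal was 3304 on the nonswimming, 6522 on the swimming and 5502 on the Chlorella array. The swimming ratio was 0.94 ± 0.20 (1.91-fold), and 94.3% of genes had a lower one. Chlorella swimming against nonswimming had 1.001 ± 0.20 and so lay at the 2-fold threshold itself, with 97.9% of genes lower. The swimming and Chlorella arrays did not differ beyond the scanner error, with a ratio of 0.07 ± 0.20 and a 95% interval of -0.33 to 0.47. The files place this probe on chromosome 2 over 113789115 to 113790038.

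Other actins did not reach 2-fold in any comparison. Of 5 actin genes on the list, 4 were measured, and their medians were 0.01, 0.23 and 0.28 in the 3 comparisons. Acta1, the main actin of adult skeletal muscle, had -0.14 in swimming against nonswimming and 0.38 in Chlorella against normal food. Actg2, an actin of smooth muscle, had 0.57 in swimming against nonswimming. Coding sequences of the muscle actins are nearly identical, and whether the probes tell these copies apart was not tested.

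Mybpc3, cardiac myosin-binding protein C, a regulator of cross-bridges in the heart's thick filament, was dim on all 3 arrays. Its signal was 14.2 on the nonswimming, 29.1 on the swimming and 10.8 on the Chlorella array. The swimming array was the highest, and the Chlorella and nonswimming arrays did not differ beyond the scanner error, with a ratio of -0.14 ± 0.33. Chlorella against normal food had -1.12 ± 0.29, 2.18-fold lower, past the threshold. Swimming against nonswimming had 0.99 ± 0.27 (1.98-fold), just under it. The files place its probe on chromosome 2, bases 90987136 to 90987195.

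Blood and marrow genes moved in the same directions as Mybpc3 in swimming against nonswimming and in Chlorella against normal food. The summed scaled level of 11 neutrophil markers was 16.5 on the nonswimming, 277 on the swimming and 3.61 on the Chlorella array, in units of each array's 75th percentile. Of these markers 11 of 11 were at least 2-fold higher in swimming against nonswimming, and 9 of the 9 measured were lower in Chlorella against normal food. For 9 B cell markers the sums were 0.558, 6.25 and 0.368, with 6 of 6 measured genes higher in the first comparison and 3 of 3 lower in the second. For 9 erythroid markers they were 57.3, 165 and 44.7, with 7 of 7 higher and 4 of 4 lower. All neutrophil markers were detected on the nonswimming and swimming arrays, so none of that list was missing there. In Chlorella swimming against nonswimming, where Mybpc3 had -0.14, the medians were -2.39 for neutrophil, -0.42 for B cell and -0.47 for erythroid markers. Adipocyte markers had medians of 1.11, -0.98 and 0.14 in the 3 comparisons, beside 0.99, -1.12 and -0.14 for Mybpc3. The part of these cell types in the Mybpc3 ratios was not tested. In pooled tissue RNA, more cells of a type and more RNA per cell cannot be told apart.

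Of 4 myosin-binding proteins outside the set, 3 were measured. Mybpc1, the slow-type form, had a log2 ratio of -1.22 ± 0.20 in swimming against nonswimming and 1.10 ± 0.20 in Chlorella against normal food. Mybpc2, the fast-type form, had -0.25 and 0.30. Mybph, myosin-binding protein H, had 0.92 in swimming against nonswimming, 0.14 in Chlorella against normal food and 1.06 ± 0.20 in Chlorella swimming against nonswimming. Mybphl was not well above background on any array.

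**Figure D2:**
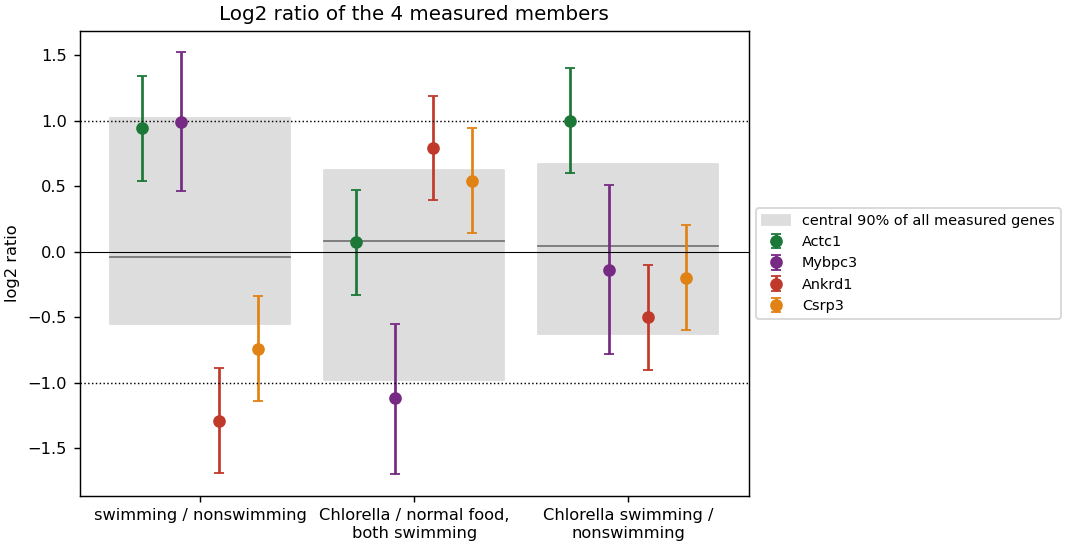
Log2 ratio of the 4 measured genes in each comparison, with bars for the 95% limits of the scanner software's error. Grey boxes span the central 90% of all measured genes (such as -0.55 to 1.02 in swimming against nonswimming), the grey line is their median and dotted lines mark 2-fold. Ankrd1 is below -1 in swimming against nonswimming, Mybpc3 is below -1 in Chlorella against normal food, and Actc1 lies on the upper line in Chlorella swimming against nonswimming.

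The natriuretic peptides and the cardiac transcription factors had no level that could be compared. The brighter Nppa probe was spotted 10 times per array. Its median spot signal was 7.21 on the nonswimming array (2 of 8 unflagged spots well above background), 7.48 on the swimming array (4 of 10) and 4.26 on the Chlorella array (0 of 9). Its spots spread widely, from 2.29 to 9.35 on the swimming array, an SD of 0.63 log2 against a median of 0.062 for bright probes spotted 10 times. The other Nppa probe had median spot signals between 1.39 and 1.69, with no spot well above background. No order of the arrays follows from such values.

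For Nppb, the brighter probe had a signal of 4.46 on the nonswimming, 7.91 on the swimming and 10.2 on the Chlorella array, and the last alone was well above background. The Chlorella level was 1.60-fold the probe's own value on the swimming array and 1.90-fold the detection limit of the nonswimming array, both under 2-fold. Each figure sets the Chlorella level against the detection limit of the other array (the dashed line in the plot of signals), or against the probe's own value there if that was higher. Neither is a strict minimum. The scanner error is not counted, and a probe above that limit need not be well above background. The second Nppb probe had 1.85, 2.20 and 1.29 and did not show a higher Chlorella level. Both genes lie on chromosome 4, with probes from 146991457 to 146991516 (Nppa) and from 146975497 to 146975556 (Nppb) for the brighter ones.

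Gata4 had signals of 4.92, 4.89 and 2.87 with its brighter probe, in the order nonswimming, swimming, Chlorella. Its second probe, spotted 10 times, had 1 of 10 spots well above background on the swimming array and none on the others. Nkx2-5 had 5.18, 4.33 and 3.14. These values show that both were not well above background and give no direction.

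The wider natriuretic pathway did not reach 2-fold in any comparison. Of 9 genes for processing enzymes, receptors and the relative Nppc, 7 were measured, with medians of -0.10, 0.15 and 0.02. Mme, neprilysin, which degrades these peptides, had 0.64 in swimming against nonswimming and -0.62 in Chlorella against normal food. Its other probe had 0.57 and -0.00 in these comparisons, so the lower level with Chlorella was seen with 1 probe alone. Prkg1, the cGMP-dependent kinase downstream of the receptors, had -0.63 and 0.67. Corin, the protease that cuts the ANP precursor in the heart, was not well above background on any array, and Npr1, the receptor of ANP and BNP, was so on the swimming array alone.

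Other cardiac transcription factors were measured more often than Gata4 and Nkx2-5. Of 21 genes, 15 were measured, and Tbx20, Hand1, Hand2, Gata5, Isl1 and Hey2 were not well above background on any array. In swimming against nonswimming none was at least 2-fold higher and 1 was lower: Myocd, myocardin, a coactivator of SRF, at -1.28 ± 0.26 on dim signals of 35.7 and 15.1. With Chlorella against normal food none was at least 2-fold lower, and the median was 0.53 against 0.08 over all genes. Tbx3, a factor of the conduction system, was past 2-fold upward at 1.02 ± 0.20. In Chlorella swimming against nonswimming none reached 2-fold, and the median was 0.17.

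**Figure D3:**
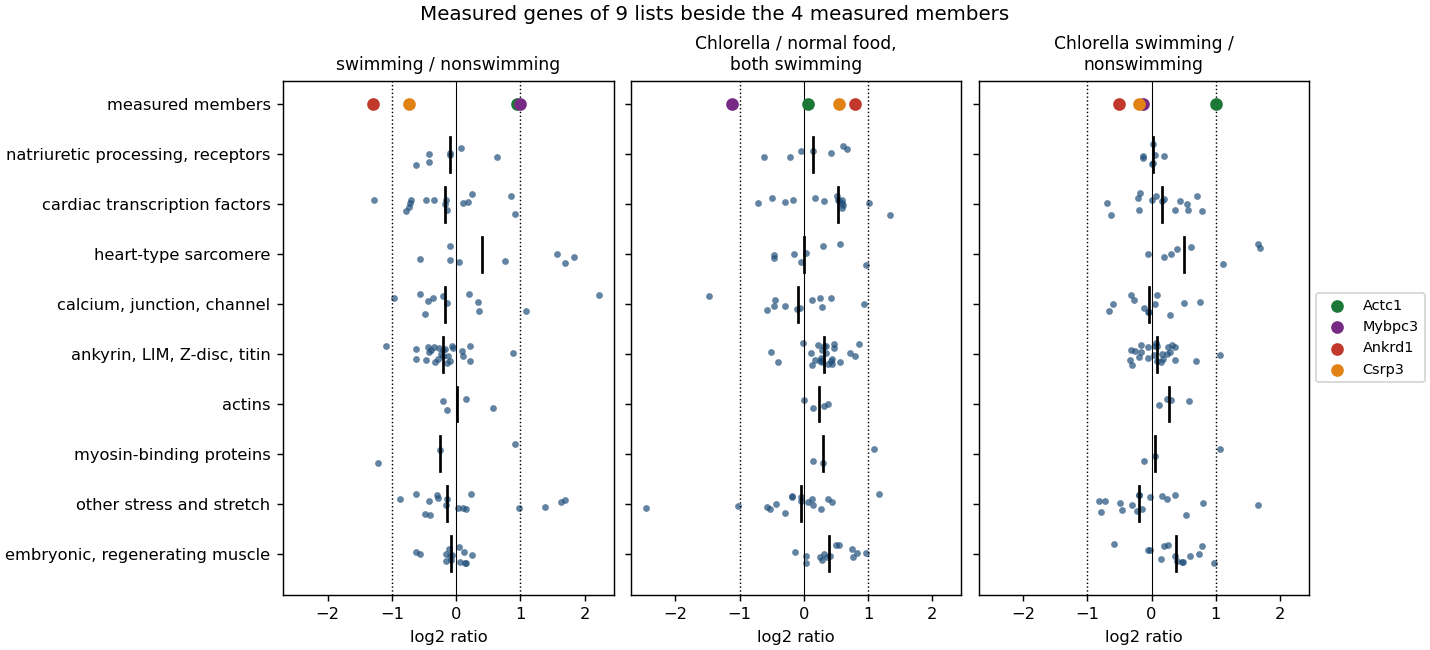
Log2 ratio of each measured gene of 9 lists (blue points, black bar for the list median) in the 3 comparisons, with the 4 measured members on the top row and dotted lines at 2-fold. In the heart-type sarcomere row 3 genes lie beyond 1 in both comparisons with the nonswimming array and none does in Chlorella against normal food, as in the counts of 3, 0 and 3.

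Among heart-type sarcomere genes, Myh6, Myh7 and Tnnc1 were at least 2-fold higher on both swimming arrays than on the nonswimming one, and the others were not. Of 10 genes with a probe, 8 were measured, and swimming against nonswimming had 3 past 2-fold upward, none downward and a median of 0.41 against -0.04 over all genes. Myh6, alpha myosin heavy chain of the heart, had signals of 545 on the nonswimming, 2014 on the swimming and 1458 on the Chlorella array. Its ratios were 1.84 ± 0.20 against nonswimming in swimming and 1.69 ± 0.20 in Chlorella swimming. Myh7, the beta heavy chain of heart and slow fibres, had 1.69 ± 0.20 and 1.66 ± 0.20. Tnnc1, troponin C of heart and slow fibres, had 1.57 ± 0.20 and 1.11 ± 0.20. The ratios of Chlorella against normal food were -0.15, -0.04 and -0.46 for these genes, and like Actc1 (0.07) none reached 2-fold there. Myh6 and Myh7 are neighbouring genes with similar sequences, and whether their probes separate them was not tested. Myl3, a light chain singled out after its values were seen, had 2 probes that disagreed, at -0.09 and 1.72 in swimming against nonswimming.

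Several markers typical of the heart were at background beside them. Of 14 cardiomyocyte markers, the nonswimming array detected 6 and each of the others 7. Myl7, the atrial light chain, Ryr2, the calcium release channel of the heart, Nppa, Nkx2-5, Gata4 and Tbx20 were not well above background on any array. The summed scaled level of this list was 16.0, 15.7 and 18.7, and without its brightest gene, Smyd1, which skeletal muscle also expresses, it was 2.29, 7.32 and 6.59. Of the genes left, Myh6 was by far the brightest, with signals of 545, 2014 and 1458. The latter sums thus follow Myh6 and do not describe the list as a group. Of 6 measured genes only Myh6 reached 2-fold, in both comparisons with the nonswimming array. Tnni3, troponin I of the heart, was dim at 15.6, 16.6 and 19.7. By contrast 12 of 12 fast skeletal muscle markers were well above background on every array, as the label of muscle implies. The same held for 10 of 10 slow skeletal muscle markers, but some of these, such as Myh7 and Tnnc1, are genes of the heart as well. In swimming against nonswimming 5 of 10 slow-fibre genes were past 2-fold upward, with a median of 0.92, and the list's summed scaled level was 338, 440 and 469. Without Myl3, its brightest gene, the sum was 93.8, 212 and 188, so the order of the swimming and Chlorella arrays turned. The fast-fibre list had a median of -0.13. Of the slow-fibre genes, Myh7, Tnnt1, Tnni1, Tnnc1 and Atp2a2 were those past 2-fold beside Actc1 (0.94), while Myl3, Myoz2, Casq2 and Pln lay between -0.27 and -0.09. With Chlorella against normal food no slow-fibre gene reached 2-fold, and the list's median was -0.45 where Actc1 had 0.07. The part of slow-fibre genes in the Actc1 ratios was not tested. Keratinocyte markers fell, with sums of 7.92, 1.90 and 2.16 and 5 of 5 measured genes at least 2-fold lower in swimming against nonswimming. Adipocyte markers rose, with sums of 395, 767 and 480 and 5 of 8 genes at least 2-fold higher.

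Calcium handling, junction and channel genes of the heart were divided. Of 15 genes, 12 were measured, and swimming against nonswimming had 2 past 2-fold upward, none downward and a median of -0.18 against -0.04 over all genes. Sln, or sarcolipin, which inhibits the pump that refills the calcium store and is abundant in atrium, had 2.22 ± 0.20, and Atp2a2, the pump of heart and slow fibres, had 1.08 ± 0.20 with 3 probes from 0.28 to 1.22. Kcne1, a potassium channel subunit, was well above background on the swimming array alone, at 2.17-fold the detection limit of the nonswimming array. Sln was lower in Chlorella against normal food at -1.47 ± 0.20, and no other gene of the list reached 2-fold on measured signals.

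Genes of cardiac stress and stretch outside the set went in several directions. In swimming against nonswimming 3 of 17 measured genes were past 2-fold upward and none downward, beside 5.14% and 1.07% of all measured genes, with a median of -0.14 against -0.04 over all genes. These were Myh7, given above, Spp1, osteopontin (1.64 ± 0.20), and Egr1, an immediate-early factor (1.38 ± 0.20). In Chlorella against normal food Spp1 had -2.46 ± 0.20 and Egr1 -1.02 ± 0.20, while Ccn2, a matrix protein induced by stretch, had 1.17 ± 0.20. Spp1 is also made by bone and macrophages, and Bglap, the bone gene osteocalcin, had 2.20 ± 0.20 and -3.20 ± 0.20 in these comparisons. The list of 8 bone and tendon markers was split in swimming against nonswimming. Its median there was 0.86 over 7 measured genes, from -1.37 to 2.26, with 3 past 2-fold upward and 1 downward. Chlorella against normal food gave a median of -0.69 over 8 measured genes, with 3 past 2-fold downward and none upward. The summed level of these markers was 32.8, 47.0 and 21.4, and their part in the Spp1 ratios was not tested. Genes of embryonic and regenerating muscle, of which 14 of 15 were measured, had none past 2-fold in any comparison. Their medians were -0.07, 0.38 and 0.38, and the farthest from 0 were Myod1, a myogenic factor, at -0.63 in swimming against nonswimming, Tnnt2, cardiac troponin T, at 0.97 in Chlorella against normal food, and Myh3, embryonic myosin, at 0.97 in Chlorella swimming against nonswimming.

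Counted over the set, few members passed the threshold. In swimming against nonswimming 0 of the 4 measured members were at least 2-fold higher and 1, Ankrd1, was lower, where 5.14% of all measured genes were higher and 1.07% lower. In Chlorella against normal food none was higher and 1, Mybpc3, was lower, beside 1.37% and 4.86% of all genes. In Chlorella swimming against nonswimming 1, Actc1, was higher and none lower, beside 2.07% and 1.49%. With 4 genes, these counts give no share that can be set against the background. The median of the 4 ratios was 0.10, 0.30 and -0.17 in the 3 comparisons, against -0.04, 0.08 and 0.04 over all genes.

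Genes with the most similar profile were found by the distance between log2 values of the 3 arrays, each gene centred on its own mean, among 13318 other genes with a symbol that were well above background on all arrays. For Ankrd1 they were Pebp4 (distance 0.051), Npy1r (0.066) and Slc17a8 (0.070), with 307 genes within 0.5. For Actc1 they were Sel1l2 (0.017), Lix1 (0.018) and Dbil5 (0.033), with 625 genes within 0.5. For Mybpc3 they were Lst1 (0.017), Blnk (0.018) and Cenpk (0.022), with 734 genes within 0.5. A profile of 3 values is matched closely by many genes, so these names describe likeness alone.

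**Figure D4:**
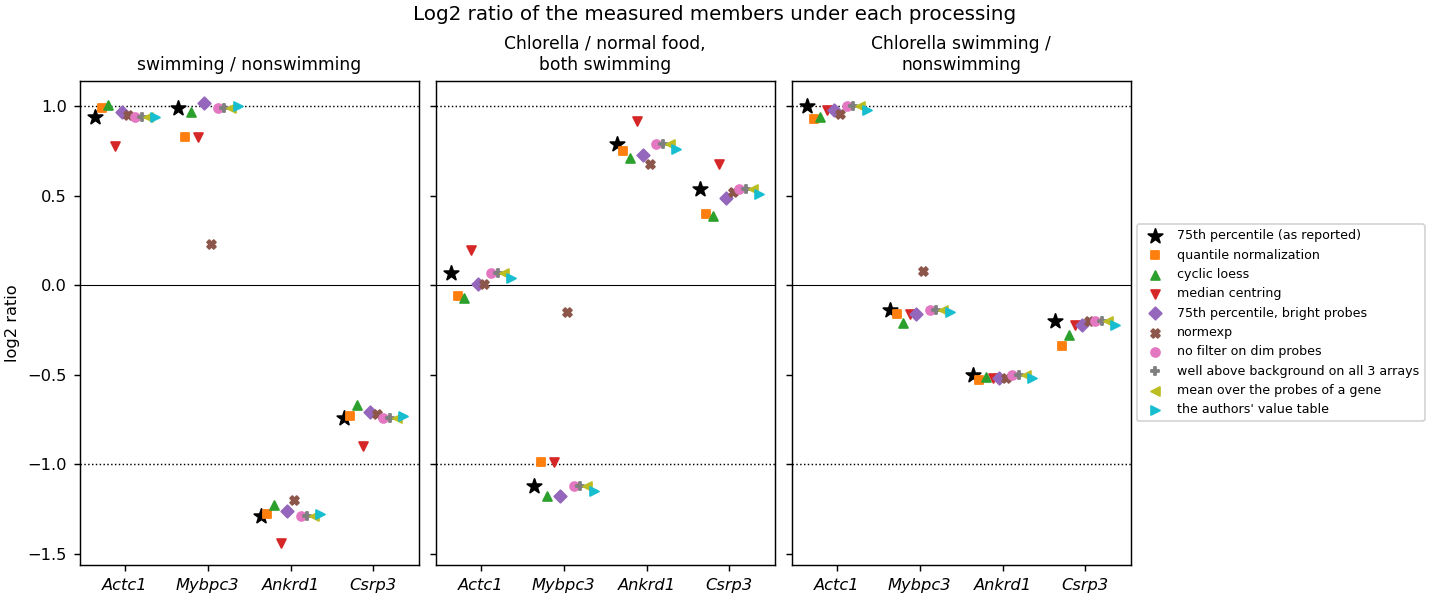
Log2 ratio of the 4 measured genes under the processing reported here (black star) and 9 alternatives (coloured marks), with dotted lines at 2-fold. Ankrd1 lies between -1.44 and -1.20 in swimming against nonswimming throughout, while Mybpc3 lies nearer to 0 with normexp background correction, at 0.23 in the first and -0.15 in the second comparison.

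The call of Ankrd1 was kept under 9 of 9 alternatives. The call of Mybpc3 was kept under 6 of 9, and with normexp its ratio was -0.15. The call of Actc1 was kept under 3 of 9, and the other values lay between 0.93 and 0.98. Those 3 were dim probes kept, dim probes more strictly removed, and probes averaged. They cannot move the ratio of a gene with no second probe that was well above background on all arrays. The same 3 are among the alternatives counted for Ankrd1 and Mybpc3.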

How the data were processed

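The labels give 3 groups with 1 array of pooled RNA each, and per the file headers all arrays lay on the same slide and in the same scan, at different positions. The deposited scanner files hold intensity. The submitters' processing notes name Agilent Feature Extraction 9.5 as the software, and the files give processed signal (detrended, per the file headers), its error, mean and local background signals and flags. The authors' value table holds deposited log2 values of 13683 spots, on a centre that is unknown, and its columns were compared by difference alone. Set against the scanner files, these differences correlated at r of 0.76, 0.82 and 0.71 and ran in the same direction.

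Controls and flagged outliers were removed, repeated spots of a probe were averaged as log2, and a probe was well above background where over 50% of its spots were. A gene was represented by its brightest probe. Symbols came from accessions, symbols or older symbols in a RefSeq table of GRCm38.p6, and 8457 probes kept the file's name. Normalization used limma 3.58.1 in R 4.3.3. Named genes were the 8 members, up to 4 genes per list and comparison past 2-fold, or the 2 farthest from 0 where none passed, and 1 gene that this rule takes is not reported here. Members and lists were chosen with earlier results of these data known. The ratio and the 2-fold rule were tried on simulated data that held the scanner error alone. Those data had no difference between mice and no undetected probes. The number of arrays limits the precision.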

Additional observations from a re-analysis of the deposited data

How the results depend on the processing

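The results were recomputed with other scalings (quantile, cyclic loess, the median, the 75th percentile of detected probes alone), with normexp (offset 50), with dim probes kept or more strictly removed, with probes averaged, from the authors' values and, for counts, asking ratios to pass the scanner's 95% limit. Centring on the median shifted all genes by a median of -0.15, 0.13 and -0.02 in the 3 comparisons, and no filter by -0.10, 0.12 and 0.08. Of 168 values for the members under alternatives, 154 stayed within the scanner error or within 1.5 times the count. These include ratios with the filter changed or probes averaged, which could not move for the measured members. With normexp the Mybpc3 ratio was 0.23 in swimming against nonswimming and -0.15 in Chlorella against normal food. Its processed signals were 10.8 to 29.1, and normexp adds the offset of 50 to every signal. That addition draws the ratio of signals this dim towards 0 whatever the levels are. In swimming against nonswimming 1 member was at least 2-fold higher with cyclic loess (Actc1, 1.01) and 1 with the percentile of detected probes (Mybpc3, 1.02). In Chlorella against normal food 0 members were lower with quantile normalization, median centring and normexp. In Chlorella swimming against nonswimming 0 members were higher with quantile normalization, cyclic loess, centring on the median, the percentile of detected probes, normexp and the authors' values, and 2 without the filter, the added one being Nppb. Beyond that offset, the cause of these changes was not tested. Normexp gave 386 and 42 genes higher and lower in swimming against nonswimming, where 805 and 167 are reported, and no filter gave 2104 and 1255. In Chlorella against normal food these were 51 and 301 with normexp and 1233 and 1998 without the filter, where 212 and 754 are reported, and in Chlorella swimming against nonswimming 92 and 57, and 1394 and 1266, where 318 and 228 are. Of 1908 values for the lists, 134 moved, judged by a fixed log2 limit for medians in place of the scanner error, and by the same 1.5 times for counts. The heart-type sarcomere median ranged from -0.02 to 1.20 in swimming against nonswimming. No paired analysis was possible because each group has 1 array. No replicate could be left out for the same reason. Leaving the brightest gene out of the marker sums was chosen after seeing the data.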
